A study of Mus musculus with 15 samples.

Results

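The 10 genes described here, Prss23, Igfbp7, Scn1a, Serpinf1, Inmt, Zfp185, Smim1, Rapgef3, Thra and Dock8, were chosen by their read counts in these same libraries, which stood far higher in cortical than in medullary thymic epithelium, and none is a textbook marker of the thymic cortex. They are 10 of the 50600 genes in the tables and of the 19107 genes with enough reads to be tested, and all 10 passed that filter on low counts. The levels in cortical and medullary cells chose them, so those levels are given as a description, without a test. The open question was which of them the epithelia of skin, lung and colon share.

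All libraries came from male C57BL/6J mice aged 8 weeks, and each was made from the sorted cells of a pool of 5 mice. Thymic epithelium was sorted into its cortical type (cTEC) and its medullary type (mTEC), and skin, lung and colon each gave an epithelial sort, which makes 5 groups of 3 libraries and 15 in all. The labels name no genetic change, no treatment and no surface markers used for sorting. KAPA RNA Stranded PolyA was the kit of the 9 cTEC, mTEC and skin libraries, and KAPA RNA HyperPrep PolyA that of the 6 from lung and colon. Where cTEC or skin is set against lung or colon, kit and tissue cannot be told apart. In such bulk samples fewer cells of a type and less RNA per cell cannot be told apart either, and n = 3 counts pools, so an SD here measures how pools vary.

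The thymic cortex and medulla do different work in making T cells. Cortical epithelium attracts progenitors, drives their commitment through Notch ligands and selects thymocytes whose receptors can recognise self MHC. Medullary epithelium displays antigens of many other tissues, partly through AIRE, so that self-reactive thymocytes are removed or turned into regulatory cells. Both descend from a shared progenitor that depends on the transcription factor FOXN1.

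The libraries held between 12946533 and 41978665 reads assigned to genes on the sense strand. The range was 14329113 to 17864005 in cTEC, 15696678 to 18538657 in mTEC, 12946533 to 15292850 in skin, 38561052 to 41978665 in lung and 24223316 to 32410992 in colon. Levels are in CPM, gene reads set relative to the library total after TMM scaling. The 10 genes are ranked against each other only in TPM, the deposited abundance that takes gene length into account, whereas marker lists are summed in CPM. The sorting labels held against marker genes: 12 of 13 cortical markers were higher in every cTEC library than in every mTEC library, with Il7 overlapping, and 11 of 12 medullary markers were lower, with Trpm5 overlapping. The highest mean was in the matching tissue for 8 of 9 skin markers, 10 of 10 lung markers and 10 of 10 colon markers, the exception being Trp63, which was highest in cTEC. cTEC replicate 3 stood apart within its group: its 13 cortical markers summed to 19188 CPM, against 10068 and 9218 CPM in cTEC replicates 1 and 2, and its 12 medullary markers summed to 2334 CPM, against 3909 and 4485 CPM. The medullary sum was mostly Krt5, Krt14 and Ccl21a, lowest in replicate 3, as were Tnfrsf11a, Cldn3, Cldn4, Ccl19 and Trpm5. Cd80 lay between the other replicates. Aire (39.3, 26.3 and 67.0 CPM in replicates 1 to 3), Fezf2 (49.6, 44.8 and 60.4) and Cd40 (22.9, 18.9 and 40.0) were highest in replicate 3.

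Promoter windows were taken from RefSeq on GRCm38.p6, from 250 bases before to 50 bases after each annotated start, and were found for 9 of the 10 genes, Thra being the one without an entry. They were searched on both strands for GACGC, the core recognised by FOXN1, and for AGGTCA, the element bound by nuclear receptors such as the thyroid hormone receptor that Thra encodes, and the 2 motifs share no overlap. The windows of Scn1a, Serpinf1 and Smim1 are shown because each holds a match and they differ outside the thymus: Scn1a was nearly without reads there, Serpinf1 was high in skin, and Smim1 was highest in cTEC and next in lung. Capitals mark the motif letters on either strand, and each sequence runs 5′ to 3′ along the gene. They lie at chr2:66440788-66441087, chr11:75422574-75422873 and chr4:154025995-154026294, all on the minus strand.
Scn1a: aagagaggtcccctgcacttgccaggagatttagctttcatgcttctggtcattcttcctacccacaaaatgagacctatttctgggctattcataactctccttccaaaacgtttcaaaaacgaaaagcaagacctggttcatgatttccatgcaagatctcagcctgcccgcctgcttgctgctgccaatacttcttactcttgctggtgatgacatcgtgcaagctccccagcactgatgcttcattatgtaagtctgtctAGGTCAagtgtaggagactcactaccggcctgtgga
Serpinf1: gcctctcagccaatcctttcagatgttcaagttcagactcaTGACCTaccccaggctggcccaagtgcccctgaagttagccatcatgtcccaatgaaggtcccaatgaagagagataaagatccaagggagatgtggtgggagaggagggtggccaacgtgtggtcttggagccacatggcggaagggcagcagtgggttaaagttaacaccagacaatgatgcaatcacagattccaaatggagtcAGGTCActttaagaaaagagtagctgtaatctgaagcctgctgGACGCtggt
Smim1: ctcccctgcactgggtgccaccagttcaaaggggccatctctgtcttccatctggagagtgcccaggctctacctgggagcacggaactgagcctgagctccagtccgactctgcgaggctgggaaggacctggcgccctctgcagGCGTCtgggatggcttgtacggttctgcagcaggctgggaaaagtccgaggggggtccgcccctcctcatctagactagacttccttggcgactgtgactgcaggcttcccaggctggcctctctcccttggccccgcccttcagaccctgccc
At the annotated start, GACGC was present in 3 of the 9 genes (Serpinf1, Smim1 and Dock8) and AGGTCA in 2 (Scn1a and Serpinf1). Over all 32851 such windows of 300 bases the shares were 27.2% for GACGC and 16.3% for AGGTCA. Prss23 had 7 windows, and only the one at its outermost start, which held neither motif, entered the counts of genes. With any window counted, 4 genes held GACGC and 3 held AGGTCA, Prss23 being the gene added to both. A match is a run of letters and nothing is drawn from it about either factor.

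In all 10 genes every cTEC library was above every mTEC library, as the choice of the genes requires; 19.9% of all genes tested had cTEC wholly above mTEC. The log2 fold change of cTEC over mTEC ranged from 2.45 for Dock8 to 5.12 for Prss23, with a median of 3.98, against a median of -0.07 over all genes tested. Prss23 held rank 5 by this value and Dock8 rank 214, so 204 other genes had a larger cortical bias than the lowest of the 10. What the choice did not fix was the level outside the thymus. Among the 5 groups mTEC had the lowest mean for Prss23, Igfbp7, Rapgef3, Thra and Dock8, while cTEC had the highest mean only for Scn1a, Smim1 and Rapgef3, all in CPM; in TPM the lowest mean of Rapgef3 was in skin and the highest mean of Zfp185 in cTEC.

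**Figure D1:**
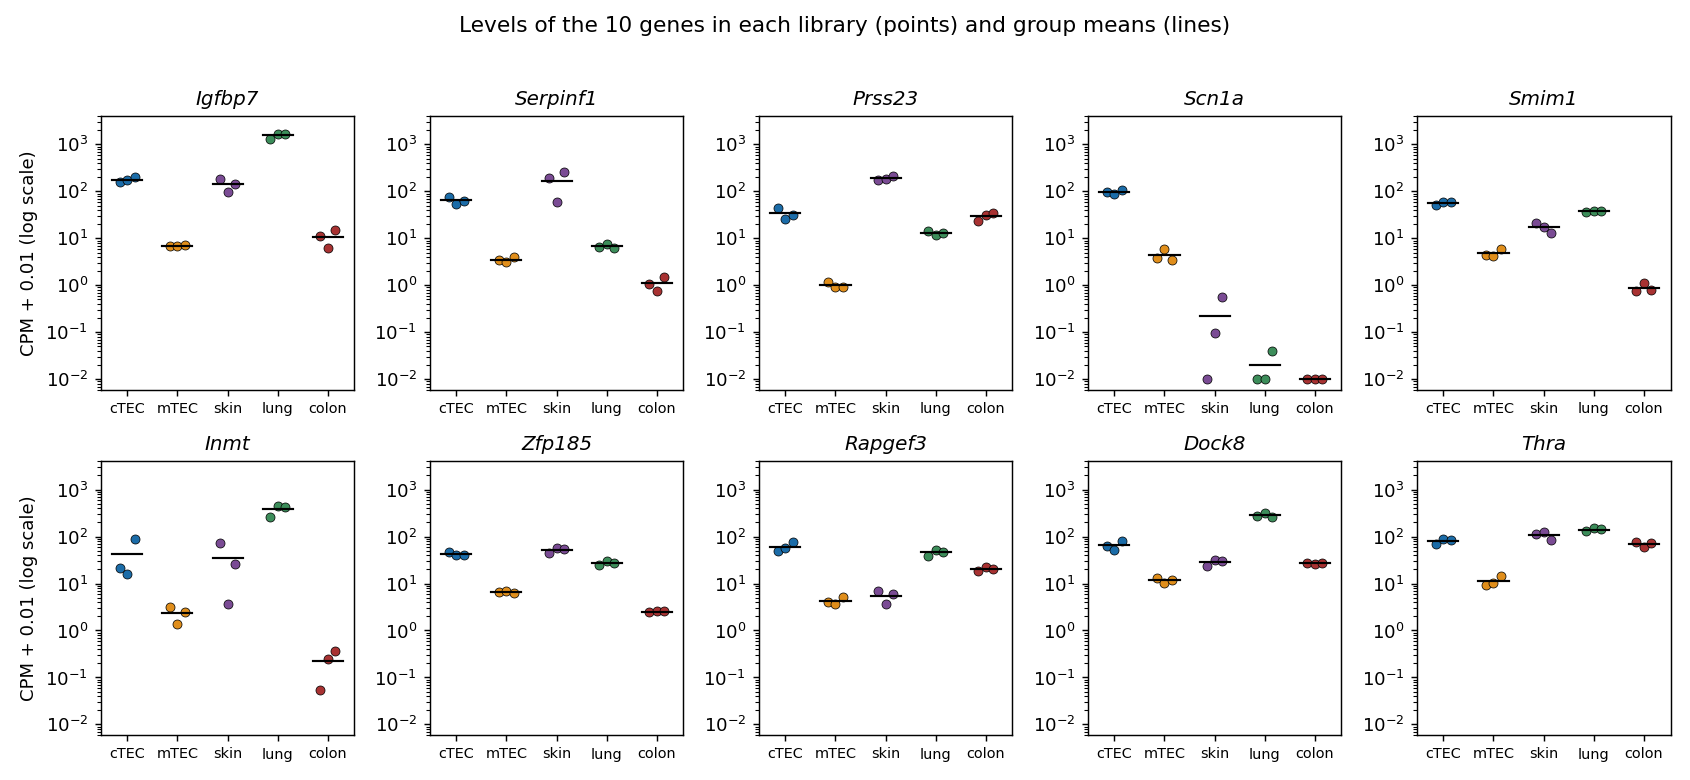
Level of each of the 10 genes in every library (points, CPM plus 0.01 on a log scale) with the mean of the 3 libraries of each group (lines), for cTEC, mTEC, skin, lung and colon. Scn1a is the only gene with all 3 extrathymic groups below mTEC, and Igfbp7, Inmt and Dock8 peak in lung.

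For 8 of the 10 genes at least 1 library of skin, lung or colon reached the cTEC range, that is, lay at or above the lowest cTEC library. Skin did so for 6 genes (Prss23, Igfbp7, Serpinf1, Inmt, Zfp185 and Thra), lung for 5 (Igfbp7, Inmt, Rapgef3, Thra and Dock8) and colon for 2 (Prss23 and Thra). Scn1a and Smim1 were the genes for which no extrathymic library did. Taken by tissue, cTEC lay wholly above skin for 4 of the 10 genes, above lung for 5 and above colon for 8. Over all genes tested it did so for 32.8%, 35.7% and 37.9%, the others reaching the cTEC range. The share of all genes that belongs beside the count of 8 was not computed. The count of 8 became 7 without cTEC replicate 1 or without lung replicate 2, in both cases through Rapgef3. The count of 6 for skin became 5 without skin replicate 1, through Igfbp7, and the count of 2 for colon became 1 without cTEC replicate 1. On the TPM scale fewer genes did so, 7 in all: 5 for skin, without Igfbp7, 4 for lung, without Rapgef3, and 0 for colon. No share over all genes was computed on that scale. Set against mTEC, 9 of 10 genes had an extrathymic group wholly above mTEC, which the choice of genes low in mTEC favours. Lung did so for 9, skin for 8 and colon for 4, where 35.6%, 21.7% and 34.9% of all genes lay wholly above mTEC. Colon lay wholly below mTEC for 5 genes, Scn1a, Serpinf1, Inmt, Zfp185 and Smim1, and skin and lung for Scn1a, where 42.9%, 36.7% and 41.4% of all genes lay wholly below mTEC in colon, skin and lung.

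**Figure D2:**
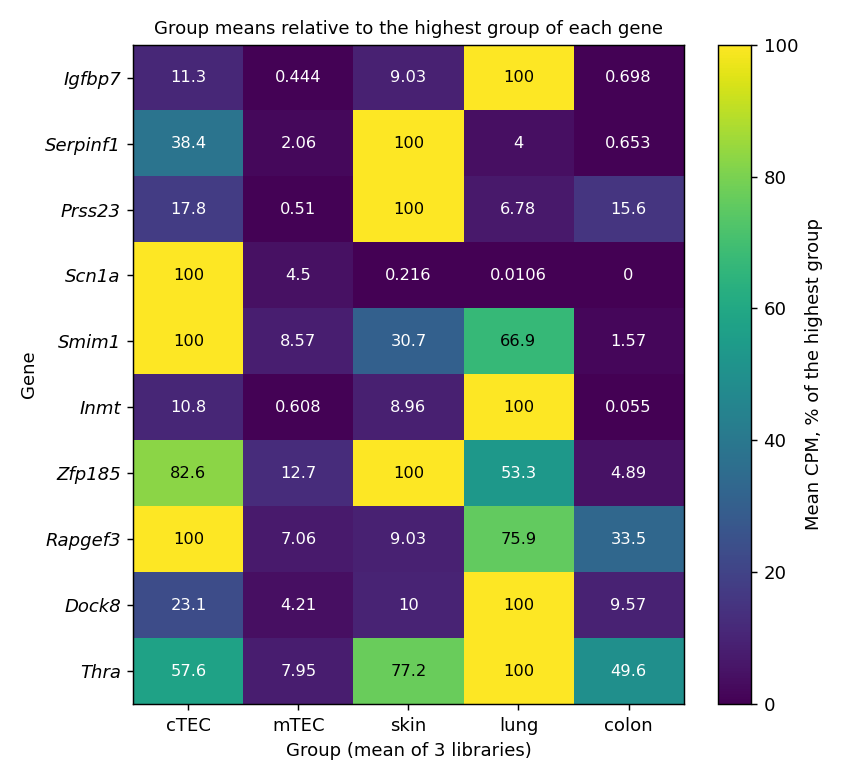
Mean CPM of each gene in cTEC, mTEC, skin, lung and colon (mean of 3 libraries) as a percentage of its highest group. The highest group was cTEC for Scn1a, Smim1 and Rapgef3, skin for Serpinf1, Prss23 and Zfp185 and lung for Igfbp7, Inmt, Dock8 and Thra.

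Set against each extrathymic tissue in turn, without a test, cTEC was wholly above skin for 4 genes, wholly below it for 1 and overlapping for 5, where 32.8% and 22.5% of all genes were above and below. Against lung it was above for 5, below for 4 and overlapping for 1, where all genes gave 35.7% and 35.6%. Against colon it was above for 8 and overlapping for 2, where all genes gave 37.9% above and 35.8% below. The median log2 fold change of the 10 genes was 0.30 for cTEC over skin, 0.49 over lung and 4.05 over colon, and over all genes tested it was 0.19, 0.10 and 0.14. On the scale of log2(TPM + 0.1) the medians of the 10 genes were 0.89, 0.88 and 4.50, but those of all genes tested also stood higher, at 0.585, 0.378 and 0.605. In TPM cTEC was wholly above skin for 5 genes, lung for 6 and colon for all 10, with Igfbp7 added over skin, Rapgef3 over lung and Prss23 and Thra over colon. The shares of all genes without overlap were not computed in TPM, so these counts are not read as particular to the 10 genes.

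The secreted products were abundant in cTEC. Igfbp7 (ENSMUSG00000036256.13, chromosome 5, 77349240 to 77408041, minus strand, GRCm38) encodes a secreted protein that binds insulin-like growth factors and insulin and is deposited in vessel walls and matrix. It stood at 155, 173 and 202 CPM in cTEC and 6.82, 6.91 and 7.06 CPM in mTEC. Outside the thymus it stood at 184, 96.1 and 143 CPM in skin, 1335, 1649 and 1701 CPM in lung and 11.3, 6.26 and 15.1 CPM in colon. Lung was far above every other group, cTEC and skin overlapped through skin replicate 1 alone, and colon and mTEC overlapped at the bottom. Skin replicate 1 also had the largest share of reads outside genes of all libraries, 46.9%. In log2 fold change, cTEC was 4.67 ± 0.32 (SE) over mTEC, 0.32 ± 0.27 over skin, -3.14 ± 0.29 over lung and 4.02 ± 0.31 over colon. In TPM cTEC did not overlap skin, with 234 TPM in the lowest cTEC library and 187 TPM in the highest skin library. Igfbp7 was also the most abundant of the 10 genes per length in cTEC, at 271 ± 61.3 TPM (SD, n = 3).

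Serpinf1 (ENSMUSG00000000753.15, chromosome 11, 75409769 to 75422701, minus strand) encodes pigment epithelium-derived factor, a secreted serpin without protease inhibitor activity that limits vessel growth. Its cTEC libraries stood at 76.4, 55.0 and 63.6 CPM and its mTEC libraries at 3.46, 3.07 and 3.94 CPM. In skin it had 194, 59.4 and 255 CPM, in lung 6.64, 7.40 and 6.31 CPM and in colon 1.07, 0.733 and 1.52 CPM. Skin replicate 2 fell within the cTEC range and the other skin libraries lay above it, whereas lung and colon were far below cTEC. By log2 fold change cTEC stood 4.21 ± 0.42 over mTEC, -1.38 ± 0.36 over skin, 3.26 ± 0.40 over lung and 5.89 ± 0.47 over colon. The skin libraries took the same order in 10 fibroblast markers, which summed to 4369, 1397 and 8464 CPM; the sums were 289 to 554 CPM in cTEC, 185 to 197 in mTEC, 977 to 1320 in lung and 190 to 429 in colon. No marker of that list was at 0 in any group, and the part of other cells in the level of Serpinf1 was not tested.

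Prss23 (ENSMUSG00000039405.7, chromosome 7, 89507783 to 89527187, minus strand) encodes a secreted serine protease. It had 45.0, 26.1 and 32.1 CPM in cTEC and 1.15, 0.892 and 0.910 CPM in mTEC. Skin had 177, 186 and 217 CPM, lung 14.4, 11.7 and 13.2 CPM and colon 23.8, 31.3 and 35.2 CPM. Skin was above every other library, cTEC overlapped colon, and mTEC was lowest. Relative to mTEC the cTEC log2 fold change was 5.12 ± 0.25, the largest of the 10, but -2.49 ± 0.20 over skin, 1.39 ± 0.20 over lung and 0.19 ± 0.19 over colon. On the log2(TPM + 0.1) scale the value over colon was 1.23, with 44.0 ± 16.0 TPM in cTEC and 18.8 ± 4.23 TPM in colon (SD, n = 3 each) and no overlap.

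The genes whose cTEC range no extrathymic library reached, Scn1a and Smim1, both encode membrane proteins. Scn1a (ENSMUSG00000064329.13, chromosome 2, 66270778 to 66440840, minus strand) encodes the pore-forming subunit of the voltage-gated sodium channel Nav1.1, known for firing in inhibitory neurons. It had 97.0, 87.7 and 108 CPM in cTEC and 3.86, 5.86 and 3.47 CPM in mTEC. Skin had 0, 0.088 and 0.545 CPM, lung 0, 0 and 0.031 CPM, and colon had no read in any library. The groups did not overlap between cTEC and mTEC or between mTEC and any extrathymic group. In reads, cTEC held 5551, mTEC 262, skin 10, lung 1 and colon 0. With colon set at a floor of 3 reads over the group, cTEC was at least 2434-fold higher; the 95% counting interval of that ratio, which lets colon hold more reads than the floor, began at 1979.8. Against lung the ratio was 9708 with a 95% counting interval of 1742 to 383438. These bounds cover counting error only, since reads copied by PCR do not each stand for a separate molecule. Over mTEC the log2 fold change of cTEC was 4.48 ± 0.40 and over skin 8.57 ± 0.54. The value over skin rests on skin replicate 3, without which it was 10.92, and on the log2(TPM + 0.1) scale it was 6.85. Per length the cTEC level was modest, at 21.8 ± 5.01 TPM (SD, n = 3).

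The gene closest to Scn1a across the 15 libraries was Grm8, which encodes a metabotropic glutamate receptor, with a Pearson r of log2 CPM of 0.997 over 9406 candidate genes. Grm8 averaged 25.7 CPM in cTEC, against 2.93 CPM in mTEC and 0.191 CPM in skin, with no read in lung or colon. The 15 libraries fall into 5 groups, so such values describe a shared order of groups. The transcript Gm13630, on the opposite strand inside the Scn1a locus (chromosome 2, 66409494 to 66421588), had 338 reads in cTEC, 17 in mTEC and 0 in skin, lung and colon.

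Smim1 (ENSMUSG00000078350.11, chromosome 4, 154020470 to 154026230, minus strand) encodes a small membrane protein that in humans carries the Vel blood group. It had 50.9, 59.1 and 59.2 CPM in cTEC and 4.46, 4.24 and 5.80 CPM in mTEC. Skin had 21.6, 17.7 and 12.7 CPM, lung 36.5, 37.7 and 39.1 CPM and colon 0.760, 1.10 and 0.802 CPM. No 2 groups adjacent in level overlapped, the order being cTEC, lung, skin, mTEC and colon. Its log2 fold change in cTEC was 3.54 ± 0.22 over mTEC, 1.71 ± 0.20 over skin, 0.58 ± 0.19 over lung and 5.97 ± 0.25 over colon. Smim1 is known from red cells, and 8 erythroid markers summed to 0.336 to 1.85 CPM in cTEC, 4.46 to 12.2 in mTEC, 63.9 to 123 in skin, 8.38 to 13.4 in lung and 2.76 to 5.77 in colon; their part in the level of Smim1 was not tested.

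Inmt (ENSMUSG00000003477.5, chromosome 6, 55170626 to 55175043, minus strand) encodes indolethylamine N-methyltransferase, an enzyme that methylates tryptamine and related amines and is abundant in lung. It varied more among cTEC libraries than any other of the 10 genes, with a coefficient of variation of 95.7%. cTEC had 21.4, 15.9 and 87.3 CPM and mTEC 3.11, 1.39 and 2.51 CPM. Skin had 73.5, 3.62 and 26.3 CPM, lung 263, 457 and 434 CPM and colon 0.045, 0.233 and 0.357 CPM. Lung was above all other libraries, the skin libraries spread across and below the cTEC range, and colon was lowest. The high cTEC library is replicate 3, which also had the highest cortical marker sum. For Inmt the cTEC log2 fold change was 4.13 ± 0.88 over mTEC, 0.27 ± 0.74 over skin, -3.21 ± 0.79 over lung and 7.57 ± 1.14 over colon.

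Zfp185 (ENSMUSG00000031351.15, chromosome X, 72987339 to 73031543, plus strand) encodes a LIM-domain protein that associates with the actin cytoskeleton. It stood at 46.8, 41.1 and 40.2 CPM in cTEC and 6.47, 6.86 and 6.41 CPM in mTEC. Skin had 43.8, 56.0 and 55.1 CPM, lung 25.1, 30.1 and 27.4 CPM and colon 2.46, 2.53 and 2.59 CPM. Skin and cTEC overlapped through their nearest libraries, lung was intermediate, and mTEC and colon were low. Expressed as log2 fold change, cTEC was 2.70 ± 0.15 over mTEC, -0.28 ± 0.14 over skin, 0.63 ± 0.14 over lung and 4.08 ± 0.16 over colon. In TPM the direction against skin flipped, with 19.9 ± 2.69 TPM in cTEC and 17.9 ± 6.56 TPM in skin (SD, n = 3 each).

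Rapgef3 (ENSMUSG00000022469.16, chromosome 15, 97744770 to 97767972, minus strand) encodes EPAC1, an exchange factor that activates the small GTPases of the Rap family when it binds cAMP. It had 48.7, 57.1 and 76.8 CPM in cTEC and 3.96, 3.74 and 5.20 CPM in mTEC. Skin had 6.87, 3.62 and 6.00 CPM, lung 39.5, 51.3 and 47.9 CPM and colon 18.2, 22.8 and 20.1 CPM. Lung replicate 2 lay within the cTEC range, colon was intermediate, and skin overlapped mTEC, and only Scn1a among the 10 had a larger log2 fold change of cTEC over skin. cTEC had a log2 fold change of 3.82 ± 0.25 over mTEC, 3.47 ± 0.25 over skin, 0.40 ± 0.22 over lung and 1.58 ± 0.23 over colon. In TPM cTEC lay wholly above lung, at 42.6 ± 14.0 against 23.7 ± 4.33 TPM (SD, n = 3 each).

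Dock8 (ENSMUSG00000052085.6, chromosome 19, 24999534 to 25202432, plus strand) encodes an exchange factor for CDC42 that is best known from lymphocytes and dendritic cells, where its loss causes immune deficiency in humans. It had 64.4, 51.1 and 79.8 CPM in cTEC and 13.3, 10.4 and 11.998 CPM in mTEC. Skin had 23.2, 31.5 and 30.1 CPM, lung 273, 311 and 263 CPM and colon 27.4, 25.9 and 27.8 CPM. Lung was far above the other groups, cTEC was above skin and colon, which overlapped, and mTEC was lowest. For Dock8 the cTEC log2 fold change was 2.45 ± 0.18 over mTEC, 1.201 ± 0.17 over skin, -2.12 ± 0.17 over lung and 1.27 ± 0.17 over colon.

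Markers of immune cells moved with Dock8 in part. Sums of 15 thymocyte and T cell markers were 165 to 228 CPM in cTEC, 73.2 to 130 in mTEC, 93.2 to 253 in skin, 4.28 to 7.58 in lung and 39.3 to 55.3 in colon, so they were higher in cTEC than in mTEC and lowest in lung. In skin that sum was mostly Bcl11b, at a mean of 171 CPM, with Tcf7 at 14.8 CPM. Sums of 11 myeloid and dendritic cell markers were 52.7 to 81.9 CPM in cTEC, 106 to 214 in mTEC, 30.7 to 72.1 in skin, 1777 to 3301 in lung and 8.26 to 12.03 in colon. In lung that sum was mostly Lyz2, which alveolar epithelium also expresses, at a mean of 1891 CPM, and Csf1r at 539 CPM, while Ptprc, the common leukocyte antigen, stood at 2.83 CPM. In skin Cd3g, Cd4, Rag2, Themis, Dntt and Flt3 were at 0, and in colon Rag2, Ptcra and Flt3. The part of immune cells in the level of Dock8 was not tested.

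Thra (ENSMUSG00000058756.13, chromosome 11, 98740638 to 98769006, plus strand) encodes thyroid hormone receptor alpha, a nuclear receptor that regulates transcription with RXR partners. It had 68.8, 90.7 and 82.9 CPM in cTEC and 9.18, 10.1 and 14.1 CPM in mTEC. Skin had 114, 125 and 85.8 CPM, lung 129, 150 and 141 CPM and colon 76.9, 58.9 and 73.2 CPM. The cTEC libraries overlapped those of skin and colon and lay below lung, and mTEC stood alone at the bottom. The log2 fold change of cTEC was 2.85 ± 0.20 over mTEC, -0.42 ± 0.18 over skin, -0.80 ± 0.18 over lung and 0.21 ± 0.18 over colon. In TPM cTEC and skin were nearly level, at 57.4 ± 8.23 and 55.4 ± 2.70 TPM (SD, n = 3 each). Nr1d1 lies on the opposite strand and shares 1075 bases with Thra; it had means of 257 CPM in cTEC, 64.7 in mTEC, 252 in skin, 502 in lung and 383 in colon, and counting used the sense strand. Other antisense transcripts at these loci had few reads: Prss23os had 22 in cTEC, 0 in mTEC, 90 in skin, 29 in lung and 26 in colon, and Rapgef3os2 had 26, 2, 0, 25 and 5 in the same groups.

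Vessel cells also express Igfbp7 and Rapgef3. Sums of 12 endothelial markers were 20.3 to 24.4 CPM in cTEC, 47.5 to 71.0 in mTEC, 157 to 540 in skin, 356 to 524 in lung and 18.0 to 65.0 in colon. Sums of 10 pericyte and smooth muscle markers were 539 to 715 CPM in cTEC, 1682 to 1790 in mTEC, 276 to 411 in skin, 106 to 206 in lung and 49.3 to 117 in colon. Both lists were thus lower in cTEC than in mTEC. Fibroblast sums were higher in cTEC than in mTEC, and Dcn made up most of the summed CPM in cTEC, at a mean of 317 CPM in cTEC and 74.6 CPM in mTEC. Of the 10 fibroblast markers 5 had a higher mean in cTEC and 5 a lower one, Col1a1, Pdgfra, Fbln1, Pi16 and Mfap5, among them Fbln1 at 40.2 CPM in cTEC and 53.8 CPM in mTEC. The smaller lists of 6 B cell markers gave 26.7 to 86.7 CPM in cTEC, 18.4 to 59.0 in mTEC, 3.18 to 7.71 in skin, 2.44 to 5.29 in lung and 0.895 to 1.60 in colon. Those of 6 Schwann cell markers gave 33.9 to 37.4 CPM in cTEC, 64.0 to 76.8 in mTEC, 82.9 to 170 in skin, 148 to 160 in lung and 112 to 123 in colon. Of the 6 B cell markers 1 had a higher mean in cTEC than in mTEC and 5 a lower one, and the Schwann cell list split likewise. The part of these cells in the levels of the 10 genes was not tested.

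**Figure D3:**
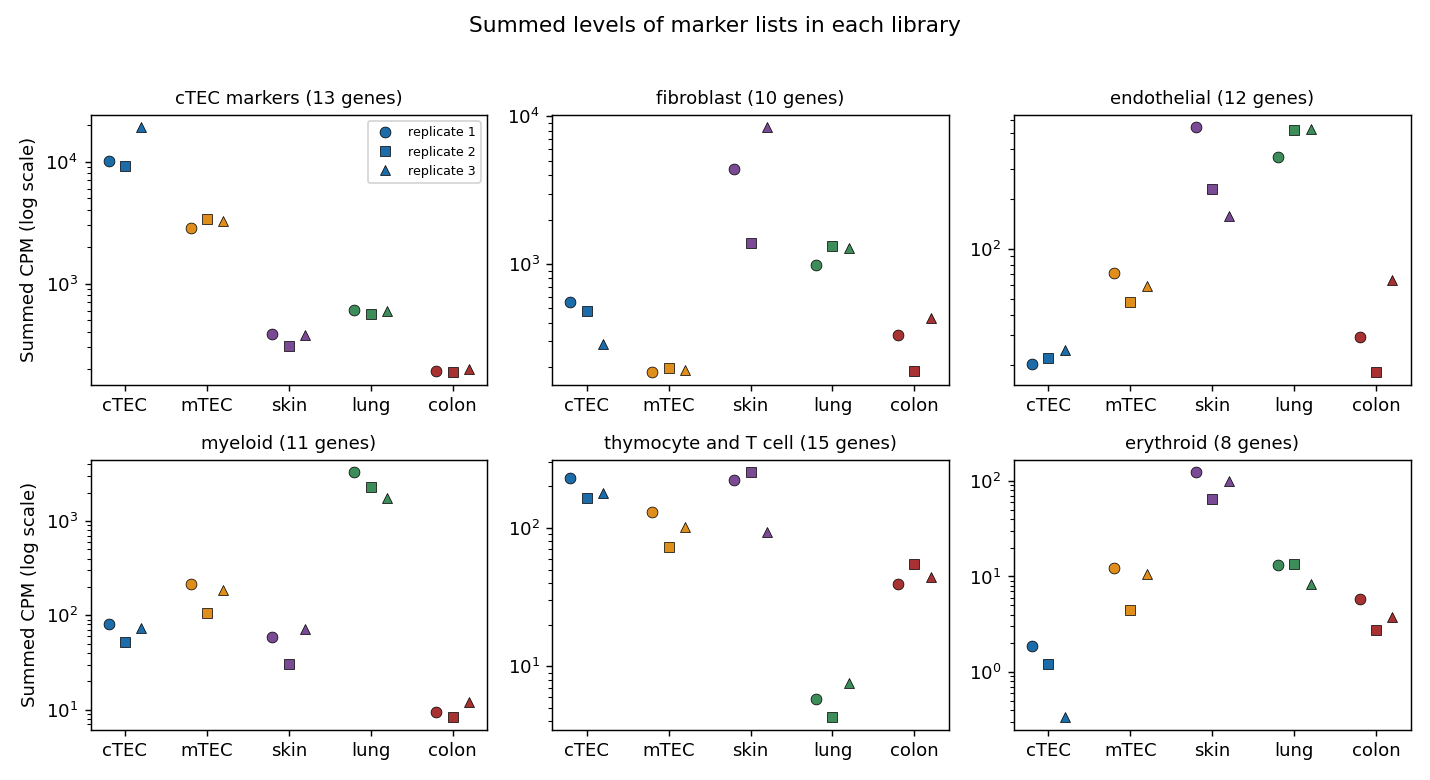
Summed CPM (log scale) of 13 cortical markers and of marker lists of fibroblasts, endothelial, myeloid, thymocyte and erythroid cells in each library of cTEC, mTEC, skin, lung and colon, with a symbol for each replicate. Endothelial sums are lower in cTEC (20.3 to 24.4 CPM) than in mTEC (47.5 to 71.0 CPM), and the fibroblast sums of skin spread from 1397 to 8464 CPM.

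The libraries of skin, lung and colon took no part in choosing the genes, so differences among these epithelia were tested with the quasi-likelihood F-test of edgeR, with Benjamini-Hochberg adjustment over 19107 genes and calls at an adjusted p under 0.05. Scn1a, with 10 reads in skin, 1 in lung and 0 in colon, passed the filter on low counts through the thymic libraries and was left untested here, under a minimum of 20 reads set after its reads were seen. Between skin and lung 8 of the 9 genes tested differed, 3 higher and 5 lower in skin, where 60.4% of all genes were called, 26.7% higher and 33.7% lower. The skin libraries lay wholly above those of lung for 3 genes and wholly below for 6, where 24.5% and 37.2% of all genes did so. Serpinf1 was 24.98-fold higher in skin (log2 fold change 4.64 ± 0.42, adjusted p = 2.61e-07) and Prss23 14.8-fold higher (3.88 ± 0.22, adjusted p = 2.05e-09). Zfp185 was 1.88-fold higher (0.91 ± 0.14, adjusted p = 5.52e-05).

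On the lung side, Dock8 was 9.96-fold lower in skin than in lung (log2 fold change -3.32 ± 0.18, adjusted p = 1.62e-09), Igfbp7 11.1-fold lower (-3.47 ± 0.30, adjusted p = 1.40e-07) and Inmt 11.2-fold lower (-3.48 ± 0.80, adjusted p = 0.00166). Rapgef3 was 8.39-fold lower (-3.07 ± 0.25, adjusted p = 8.48e-08) and Smim1 2.18-fold lower (-1.13 ± 0.20, adjusted p = 0.000181). Thra did not pass, at -0.37 ± 0.18 with an adjusted p of 0.0910. Its 95% interval for the single gene, by normal approximation, was -0.73 to -0.02. That approximation is narrower than the F-test allows, so leaving out 0 is not read as a difference. The 3 skin libraries of Thra nevertheless all lay below its 3 lung libraries. Without skin replicate 2 Thra passed, at -0.51 with an adjusted p of 0.0439.

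Between skin and colon 7 of the 9 genes tested were higher and 1 lower in skin, where 58.2% of all genes were called, 27.4% higher and 30.8% lower. Skin lay wholly above colon for 7 and wholly below for 1, where all genes gave 24.5% and 34.1%. Inmt was 157-fold higher in skin (log2 fold change 7.29 ± 1.14, adjusted p = 6.66e-05), Serpinf1 155-fold (7.27 ± 0.49, adjusted p = 1.48e-08) and Zfp185 20.4-fold (4.35 ± 0.16, adjusted p = 7.94e-11). Smim1 (4.26 ± 0.24, adjusted p = 2.49e-09), Igfbp7 (3.70 ± 0.30, adjusted p = 9.87e-08) and Prss23 (2.68 ± 0.20, adjusted p = 4.84e-08) were higher as well. Thra was 1.56-fold higher (0.64 ± 0.18, adjusted p = 0.00789) and missed the threshold without colon replicate 2, with 0.50 and an adjusted p of 0.0564. Rapgef3 was the exception in direction, 3.70-fold lower in skin (-1.89 ± 0.24, adjusted p = 9.64e-06). Dock8 did not pass, at 0.07 ± 0.17 with an adjusted p of 0.757. Its 95% interval, by the same normal approximation, was -0.26 to 0.40 on the log2 scale and is likewise narrower than the F-test allows.

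Between lung and colon, which share a kit, 8 of the 9 genes tested were higher and 1 lower in lung, where 58.6% of all genes were called, 30.4% higher and 28.3% lower. Lung lay wholly above colon for 8 and wholly below for 1, where all genes gave 37.9% and 35.9%. Inmt was 1754-fold higher in lung (log2 fold change 10.78 ± 1.21, adjusted p = 2.57e-06), Igfbp7 144-fold (7.17 ± 0.35, adjusted p = 6.02e-10) and Smim1 41.9-fold (5.39 ± 0.25, adjusted p = 3.13e-10). Zfp185 (3.44 ± 0.16, adjusted p = 3.27e-10), Dock8 (3.38 ± 0.18, adjusted p = 1.17e-09) and Serpinf1 (2.63 ± 0.44, adjusted p = 0.000116) were higher as well. Rapgef3 was 2.27-fold higher (1.18 ± 0.23, adjusted p = 0.000383) and Thra 2.01-fold (1.01 ± 0.18, adjusted p = 0.000249). Prss23 was 2.30-fold lower in lung (-1.20 ± 0.20, adjusted p = 0.000103).

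**Figure D4:**
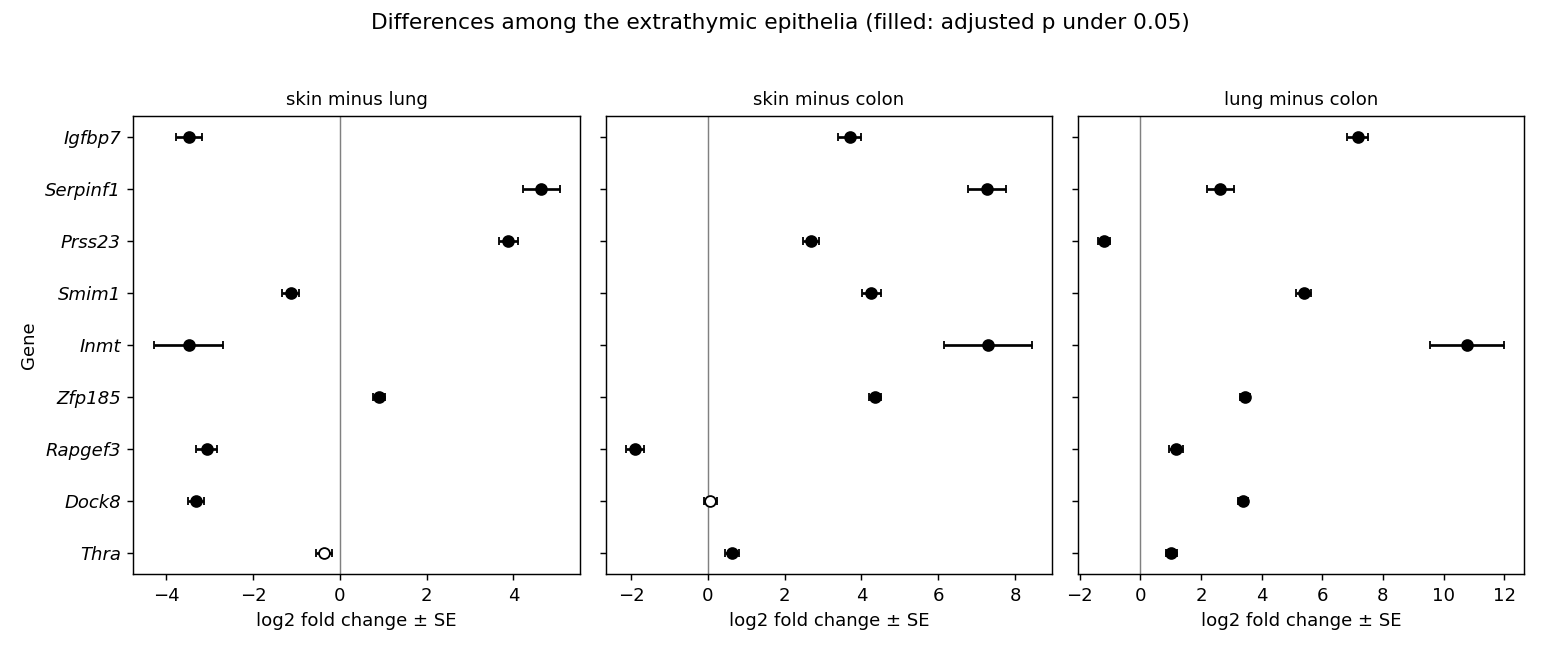
Log2 fold changes (points) with standard errors (bars) of the 9 genes tested, all but Scn1a, for skin minus lung, skin minus colon and lung minus colon, 3 libraries per group; filled points have an adjusted p under 0.05. Unfilled are Thra in skin minus lung and Dock8 in skin minus colon.

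Likeness across libraries is a description, since the cTEC and mTEC levels in it chose the genes. Across the 15 libraries the pairs most alike in log2 CPM were Igfbp7 with Inmt (r = 0.917), Zfp185 with Smim1 (r = 0.916) and Igfbp7 with Dock8 (r = 0.903), and the least alike were Scn1a and Thra (r = -0.361). The nearest other gene was Mxra8 for Igfbp7 (r = 0.981), Ephx1 for Smim1 (0.987), Degs1 for Zfp185 (0.975) and Gnai1 for Prss23 (0.969). It was Cobl for Dock8 (0.964), Smco4 for Thra (0.964), Tns1 for Inmt (0.953), Ivd for Rapgef3 (0.948) and Tnfrsf19 for Serpinf1 (0.934). Mxra8 had means of 26.9 CPM in cTEC, 4.07 in mTEC, 28.3 in skin, 155 in lung and 4.01 in colon, the lung peak of Igfbp7 on a smaller scale. Tnfrsf19 had 30.8 CPM in cTEC, 3.47 in mTEC, 154 in skin, 16.9 in lung and 2.33 in colon, as Serpinf1 highest in skin and then in cTEC.

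Of the other genes in the families of these 10, more were lower than higher in cTEC, as was so over all genes tested. Over 9 lists with 170 genes, of which 164 were tested, 30 were higher in cTEC than in mTEC and 43 lower, that is 18.3% and 26.2%, where 24.7% of all genes were called, 9.45% higher and 15.2% lower. These calls come from the same edgeR test over all genes. They leave out any pairing of libraries. Same-numbered cTEC and mTEC libraries deviated together (r of 0.156 to 0.29), so the numbers were taken as pairing them, which the labels do not state. A block for the replicate number changed the counts by the libraries it was fitted to. Over all 15 libraries the block gave 4431 called genes in place of 4714. Over the 6 thymic libraries alone the count was 7091 with the block, with 38 listed genes higher and 56 lower, and 5659 without it, with 31 higher and 51 lower. The counts rest on few libraries: without cTEC replicate 2 the calls over all genes were 3075 and without mTEC replicate 1 they were 2408, while the listed genes higher were 17 without cTEC replicate 3 and 18 without mTEC replicate 1 or 2, and those lower 26 without mTEC replicate 1.

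**Figure D5:**
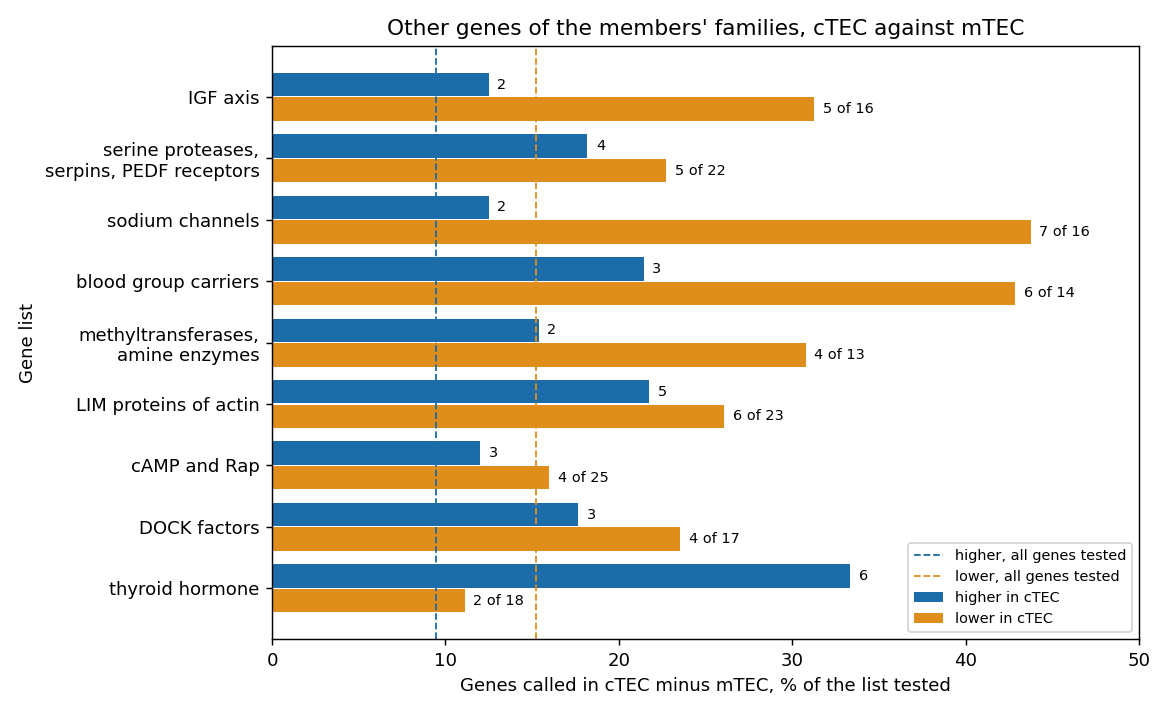
Share of the tested genes of each family list that were higher (blue) or lower (orange) in cTEC than in mTEC at an adjusted p under 0.05, with the numbers of genes at the bars; dashed lines give the shares over all genes tested, 9.45% and 15.2%. The thyroid hormone list is the one with more genes higher (6) than lower (2).

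Among sodium channel genes 2 of 16 were higher and 7 lower in cTEC. Fgf14, which binds channel tails, stood at 56.5 ± 23.6 CPM in cTEC and 14.0 ± 3.41 CPM in mTEC (SD, n = 3 each; log2 fold change 2.01 ± 0.35, adjusted p = 0.00138 by edgeR). The accessory subunit Scn3b was lower in cTEC (-3.57 ± 0.37, adjusted p = 3.02e-05). The pore-forming subunits Scn3a, Scn9a, Scn11a and Scn4a and the accessory Scn2b were also lower in cTEC. In the thyroid hormone list 6 of 18 were higher and 2 lower. The coactivator Ncoa1 was higher (0.74 ± 0.14, adjusted p = 0.00220), and so was Rxrg, a partner of thyroid hormone receptors (1.86 ± 0.52, adjusted p = 0.0213), along with the receptor Thrb, the transporter Slc16a10, Ncoa3 and Rxra. The deiodinase Dio1 was 4.24-fold lower (-2.08 ± 0.33, adjusted p = 0.000684). Leaving out single cTEC or mTEC libraries took the adjusted p of Rxrg up to 0.110.

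In the IGF list 2 of 16 genes were higher in cTEC and 5 lower. The binding proteins Igfbp3 (log2 fold change 1.40 ± 0.29, edgeR adjusted p = 0.00358) and Igfbp2 (1.62 ± 0.41, adjusted p = 0.0113) were higher, like Igfbp7, whereas Igfbp6 was lower (-2.28 ± 0.55, adjusted p = 0.00873). Pappa, a protease of binding proteins, was lower (-3.24 ± 0.79, adjusted p = 0.00918), as were Pappa2, Igfbpl1 and the insulin receptor Insr. Without mTEC replicate 1 the adjusted p was 0.0592 for Igfbp2 and 0.0510 for Pappa. Among proteases, serpins and receptors of pigment epithelium-derived factor, 4 of 22 were higher and 5 lower. Of the proposed receptors in the list, Plxdc2 (0.96 ± 0.22, adjusted p = 0.00649), Plxdc1 and Lrp6 (0.64 ± 0.18, adjusted p = 0.0189) were higher, together with Prss36. Pnpla2, listed as another such receptor, did not pass. Serpinc1, antithrombin, was lower (-2.06 ± 0.61, adjusted p = 0.0245), beside Serpind1, Serpini1 and Prss35. Serpind1 was near the floor, with means of 0.032 CPM in cTEC and 0.878 CPM in mTEC. With a cTEC or mTEC library left out the adjusted p reached 0.0751 for Lrp6, 0.107 for Plxdc1 and 0.0949 for Serpinc1. With the replicate block over all 15 libraries Prss36 and Prss35 no longer passed, at adjusted p values of 0.0548 and 0.0782.

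In the cAMP and Rap list 3 of 25 genes were higher in cTEC and 4 lower, close to the share over all genes. The regulatory and catalytic subunits of protein kinase A Prkar2a (log2 fold change 0.94 ± 0.13, edgeR adjusted p = 0.000290), Prkacb (0.61 ± 0.19, adjusted p = 0.0292) and Prkaca were higher. Rap1gap, which switches Rap1 off, was 8.04-fold lower, with 16.0 ± 4.26 CPM in cTEC and 129 ± 39.7 CPM in mTEC (SD, n = 3 each; -3.01 ± 0.29, adjusted p = 1.57e-05). The GTPases Rap2a (-0.95 ± 0.13, adjusted p = 0.000279) and Rap1a and the exchange factor Rapgef1 were lower. The adjusted p of Prkacb reached 0.134 over the alternatives, and its call was lost without a filter and with single libraries left out. Prkaca lost its call under 19 of 25 alternatives, among them the replicate block over all 15 libraries (adjusted p = 0.0617). Of 17 DOCK factors and partners 3 were higher and 4 lower: Elmo3 (1.34 ± 0.19, adjusted p = 0.000251), Dock5 (0.94 ± 0.22, adjusted p = 0.00786) and Dock1 higher, and Dock9 (-1.38 ± 0.19, adjusted p = 0.000222), Dock10 (-1.72 ± 0.39, adjusted p = 0.00657), Dock6 and Dock3 lower.

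Of 23 LIM-domain proteins of the actin cytoskeleton 5 were higher in cTEC and 6 lower. Fhl1 was 4.60-fold higher (log2 fold change 2.201 ± 0.26, edgeR adjusted p = 9.33e-05) and Ajuba 2.12-fold (1.09 ± 0.19, adjusted p = 0.00115), with Trip6, Ablim1 and Lpp. Pdlim4 was 4.44-fold lower (-2.15 ± 0.26, adjusted p = 9.33e-05) and Mical2 3.86-fold lower (-1.95 ± 0.28, adjusted p = 0.000369), with Mical1, Tes, Fhl3 and Micall2. Of 13 methyltransferases and amine enzymes 2 were higher, As3mt (0.83 ± 0.15, adjusted p = 0.00144) and Gamt (1.52 ± 0.35, adjusted p = 0.00720), which methylate arsenic and guanidinoacetate. Lower were Pnmt (-3.29 ± 0.68, adjusted p = 0.00467) and Tph1 (-2.35 ± 0.52, adjusted p = 0.00560), which make adrenaline and the serotonin precursor, with Ddc and Nnmt. Nnmt was near the floor in both groups, with means of 0.037 CPM in cTEC and 0.409 CPM in mTEC. Of 14 blood group carriers 3 were higher and 6 lower. The laminin receptor Bcam was 2.51-fold higher (1.33 ± 0.22, adjusted p = 0.000887), with Bsg (0.57 ± 0.17, adjusted p = 0.0251) and Cd151, and the chemokine scavenger Ackr1 was 7.86-fold lower (-2.97 ± 0.58, adjusted p = 0.00268), with Slc4a1 (-4.76 ± 1.17, adjusted p = 0.0148), Kel, Aqp1, Cd44 and Ermap. Kel was near the floor, with means of 0.072 CPM in cTEC and 0.982 CPM in mTEC. With a library left out the adjusted p reached 0.134 for Bsg and 0.0639 for Slc4a1. With the replicate block over all 15 libraries it was 0.0514 for Cd151 and 0.0718 for Ermap, which then did not pass.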

How the data were processed

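RNA-seq was read from 15 libraries, 3 for each of 5 groups. The submitters' processing notes name bcl2fastq 2.20 for base calls, STAR 2.5.1b for alignment to GRCm38 and RSEM 1.2.28 for expression estimates; no annotation release is stated in them. The authors deposited read counts per gene in unstranded and stranded columns, with reads outside genes on separate lines, which made up 24.2% to 46.9% of a library. They also deposited RSEM expected counts, TPM and FPKM. The sense column was used, its total being 8.43 to 19.3 times the opposite one. Expected counts, rounded to whole numbers, and the unstranded counts were alternatives, TPM served for levels between genes, and FPKM was not used. No column of another series was used (0).

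Symbols and coordinates came from GENCODE M21, which held 50376 of 50600 identifiers, and promoter sequences from RefSeq. In R 4.3.3, edgeR 4.0.16 fitted 1 model with 5 group terms to counts after TMM scaling and filterByExpr, and the quasi-likelihood F-test was adjusted by Benjamini-Hochberg over 19107 genes. Variation among replicates, as edgeR's common biological coefficient, came to 28.1%. Log2 CPM used a prior count of 2. SE is the log2 fold change divided by the square root of F. The fit was tested on simulated data. DESeq2 1.42.0 was an alternative, beside other scalings, filters, counting and left-out libraries.

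The members and lists were chosen with earlier results of these data known. Named were all 10 genes, the nearest gene to each by Pearson correlation among those with at least 10 CPM in cTEC, overlapping genes, and up to 2 genes per direction and list with the smallest p; where a list had few calls others were named after their values were seen. Some genes this rule takes are not reported here. Marker lists were read as sums of CPM. Same-numbered cTEC and mTEC libraries deviated together (r of 0.156 to 0.290 in all 3 pairs), so the numbers were taken as pairing them; the labels do not say so. The labels do not say how far the pools of a group were prepared apart, so p-values measure the spread between these libraries only.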

Additional observations from a re-analysis of the deposited data

Results flagged for a closer look

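Reads on the strand opposite to a gene lay outside the main counts. The unstranded counts held them for Dock8 in colon, with 2014 sense, 22 opposite and 2036 unstranded reads. They did not hold them in full for Smim1 in colon (68, 1674 and 49 reads) or for Thra (691, 758 and 758) and Igfbp7 (423, 63 and 403) in mTEC. For such genes that alternative does not show the effect of opposite reads. Over whole libraries opposite reads numbered 5.19 to 11.9 per 100 sense reads, and 3 of the 10 genes exceeded this level. Smim1 had 2462 opposite reads per 100 sense reads in colon, where its sense level was lowest; Lrrc47 lies on the opposite strand and shares 1044 bases, with means of 42.3 CPM in cTEC, 51.1 in mTEC, 72.9 in skin, 35.6 in lung and 54.6 in colon. Thra had 109.7 opposite reads per 100 sense reads in mTEC, and Nr1d1 shares 1075 bases with it. Igfbp7 had 14.89 in mTEC, and Polr2b shares 85 bases with it.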

How the results depend on the processing

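Leaving out each library in turn moved the number of genes called in cTEC minus mTEC between 2408 and 6554, the listed genes higher between 17 and 34 and those lower between 26 and 53. It gave 10515 to 12028 calls in skin minus lung, 9997 to 11719 in skin minus colon and 10022 to 12194 in lung minus colon. The replicate block gave 4431 calls in cTEC minus mTEC over all 15 libraries, with 27 listed genes higher and 42 lower, and 7091 over cTEC and mTEC alone, an alternative chosen after seeing the data. Between the extrathymic groups same-numbered libraries did not deviate together (r of -0.0579 to 0.0460), and the replicate block gave 11265 calls in skin minus lung, 10856 in skin minus colon and 10989 in lung minus colon. With no filter the share of higher calls in cTEC minus mTEC was 27.8%, against 38.3%. Of 648 re-computed tests of 9 of the 10 genes, 644 kept direction and call. Dock8 in skin minus colon ran from -0.030 (without skin replicate 2) through -0.0036 (without skin replicate 3) to 0.18 (without skin replicate 1). In TPM, cTEC minus skin was 0.053 for Thra and 0.15 for Zfp185. Of the 36 listed genes that the rule takes, 27 kept their call under every alternative run and none lost it under a block; of the 37 other called genes 11 did, and 5 lost it under the block over 15 libraries. Scn9a turned to 0.62 with unstranded counts. The cause was not tested in any of these. Upper quartile scaling moved the median of all genes to 0.294 in cTEC minus lung, 0.335 in cTEC minus colon and 0 in skin minus lung, against 0.10, 0.14 and -0.15. At 0 to 10 reads, depth limits Scn1a outside the thymus.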

Other observations

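cTEC replicate 3 was the highest cTEC library for 6 of the 10 genes, Igfbp7, Scn1a, Inmt, Smim1, Rapgef3 and Dock8. Replicate 1 was highest for Prss23, Serpinf1 and Zfp185 and replicate 2 for Thra. Replicate 3 also had the lowest fibroblast marker sum of the group, 289 CPM, against 554 and 479 CPM in replicates 1 and 2.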
